A study of Homo sapiens with 18 samples.

Results

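A group of 34 genes of homologous recombination, the Fanconi anaemia pathway, mismatch repair and the DNA damage checkpoint was followed by RNA-seq in 3 human acute myeloid leukaemia cell lines given the SHP2 inhibitor RMC-4550. The members were the rows of the deposited expression table that map to 1 of these 34 gene symbols and reach 1 CPM (read counts scaled to a common library size) in at least 3 libraries of a line. Each of the 34 symbols matched 1 of the 40184 Ensembl gene IDs, and all 34 members passed in each line. In SKNO-1, FANCG passed only through its DMSO libraries, so its fall there was favoured by the filter. FANCB reached 1 CPM in 4 libraries of SKNO-1 and 5 of Molm-14, and FANCG in 5 of Molm-14 and 5 of MV4-11. Their treated libraries alone would not have passed, so the filter favoured a fall there too.

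RMC-4550 is an allosteric inhibitor of SHP2, the phosphatase encoded by PTPN11 through which receptor tyrosine kinases switch on RAS and then the MAP kinases. Molm-14 and MV4-11 carry the FLT3-ITD activating duplication, and SKNO-1 carries the KIT N822K mutation. For each line, 3 replicates labelled as biological were given the vehicle DMSO for 24 h and 3 were given RMC-4550 at 500 nM for 24 h, which makes 6 groups and 18 libraries. All lines were kept in RPMI medium with serum. The SKNO-1 cultures, and not the others, also had GM-CSF at 10 ng/mL in both arms, and there was 1 line with a KIT mutation, so line, receptor mutation and growth factor cannot be told apart.

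Libraries held 17434810 to 19959917 recovered reads, and the members had 7 to 7194 reads in a library. The share of reads in 23 mitochondrial genes was 5.07% to 7.02% in 14 libraries and 10.5% to 15.0% in the other 4, which were Molm-14 RMC-4550 replicate 2, MV4-11 DMSO replicates 1 and 3, and MV4-11 RMC-4550 replicate 1. Among the members, MV4-11 DMSO replicate 2 was the highest of its group for 22 of 34, MV4-11 RMC-4550 replicate 1 the lowest of its group for 22, and Molm-14 RMC-4550 replicate 2 the lowest of its group for 21. The main counts are therefore given with and without those 4 libraries, and the changes of some members are too. Without them MV4-11 keeps 1 DMSO library, replicate 2, and 2 RMC-4550 libraries, and the lone library is assumed to vary like the other groups. SPI1 and CD33, which mark myeloid cells, were at 210.9 CPM or more and 34.5 CPM or more in every library, while CD3D, CD3E and CD3G of T cells were at 0.0641 CPM or less and MS4A1 of B cells at 0.113 CPM or less. CD68, another myeloid marker, was at 0.325 CPM or less. TRAC, a T cell receptor gene, was at 11.4 to 13.7 CPM in Molm-14 with DMSO and 2.09 to 3.59 CPM with RMC-4550. It was at 3.63 to 5.87 CPM with DMSO and 0.863 to 1.06 CPM with RMC-4550 in MV4-11 and at 0.277 CPM or less in SKNO-1, and its relation to the results was not tested.

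Homologous recombination repairs a broken chromosome from its sister copy: the ends are resected, BRCA2 prepares them for strand exchange with the help of BRCA1, BARD1 and PALB2, and the joined strands are then resolved. The Fanconi pathway opens DNA crosslinks by marking FANCD2 and FANCI with ubiquitin through a core complex and hands the break to recombination, while mismatch repair removes errors left by replication. The kinases ATM, ATR, CHEK1 and CHEK2 halt the cell cycle while repair proceeds, and many genes of these pathways are transcribed mainly in cells that are copying their DNA.

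With RMC-4550, transcripts of most members fell and none was called higher in any line. By limma on the deposited log2 values (a call is an adjusted p under 0.05), 28 of 34 members fell in Molm-14, against 19 in MV4-11 and 26 in SKNO-1. Among all genes tested, the share called lower was 25.2% in Molm-14, against 8.05% in MV4-11 and 16.2% in SKNO-1. The share called higher was 21.5%, 5.89% and 10.8%. The median log2 change of the members was -0.78 in Molm-14, against -0.47 in MV4-11 and -0.998 in SKNO-1, where it was -0.06, -0.01 and -0.05 over all genes tested. A group of 18 members fell in all 3 lines, 7 in 2 lines and 5 in 1 line, where 5.81% of the genes tested in every line were called lower in all 3. FANCF, FANCL, RAD50 and ATM were called in none. Median-ratio scaling moved the share of higher genes among all calls in SKNO-1 from 39.98% to 50.4%, with 26 members still lower. Below, values listed for the lines without their names run Molm-14 first, then MV4-11, then SKNO-1. In bulk RNA, fewer cells of a type and less RNA per cell cannot be told apart.

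Counts of falling members without the 4 libraries with a high mitochondrial share were 29 in Molm-14, against 22 in MV4-11 and 27 in SKNO-1. Under that omission the share of all genes called lower was 31.3%, 18% and 32.1%, and the share called higher was 27.7%, 8.81% and 21.2%, with ATM in SKNO-1 the 1 member called higher. A separate fit of each line has fewer degrees of freedom and uses only the spread of that line. With it the count in MV4-11 was 11, since BRCA1, BRCA2, RAD51C, RAD51D, RAD54B, FANCA, EXO1 and CHEK2 lost their calls. The median SD of the members within groups (log2) was 0.218 in MV4-11, against 0.1785 in Molm-14 and 0.1171 in SKNO-1. The main fit pools these spreads, and the part of either feature in the lost calls was not tested. The share of all genes called in the separate fits was not computed. The calls that held under every alternative tried numbered 24 of 28 in Molm-14, against 10 of 19 in MV4-11 and 25 of 26 in SKNO-1. The 10 in MV4-11 were BARD1, RAD51AP1, XRCC2, RAD54L, FANCB, FANCM, FANCD2, FANCI, BRIP1 and CHEK1.

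**Figure D1:**
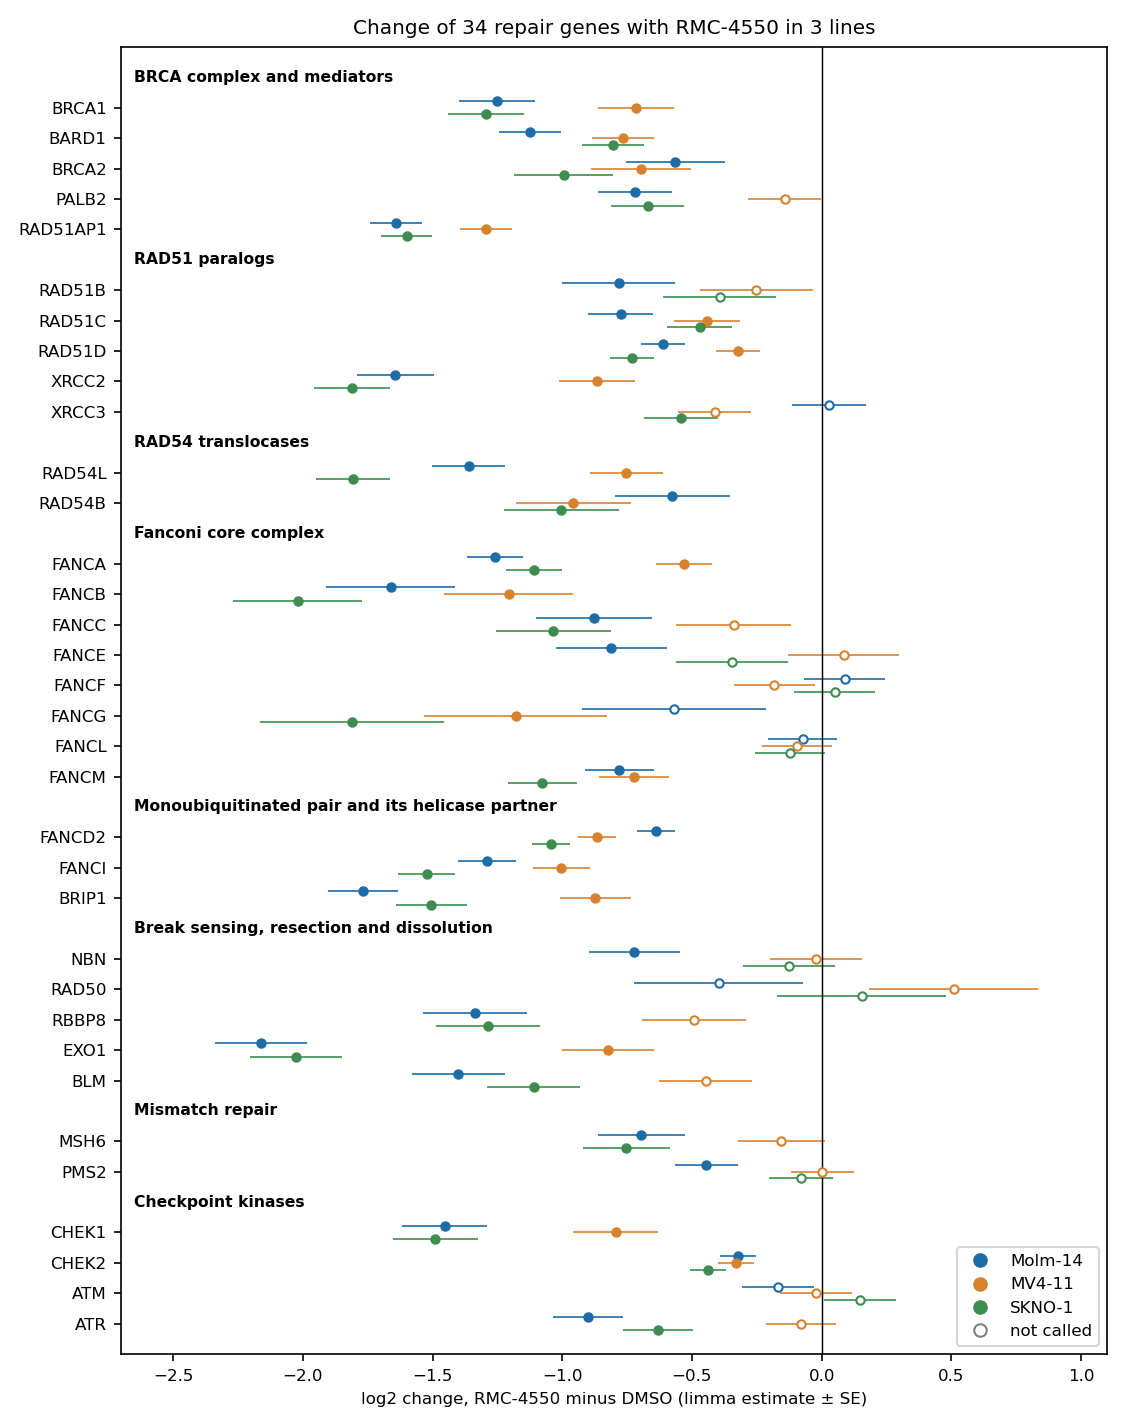
The x axis is the log2 change with RMC-4550 as a limma estimate with its SE, and each row is a member ordered by role, with Molm-14 in blue, MV4-11 in orange and SKNO-1 in green. Filled points were called, and all of them lie to the left of 0; the open points include FANCF, FANCL, RAD50 and ATM in every line.

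Because many members fell together, their start regions were searched for words bound by cell cycle regulators. Promoter sequence was given by RefSeq (GRCh38.p14) for 31 of the 34 members, which leaves out NBN, RAD54B and FANCI, and the 250 bases before each start were read on both strands. The words were those of E2F factors (TTTCCCGC, TTTCGCGC, TTTGCCGC or TTTGGCGC), the cell cycle homology region CHR (TTTGAA) and the NF-Y box (CCAAT), and no motif here contains another. An E2F word was present in 3 of 31 members (9.68%) against 2.79% of 35116 promoters, a CHR word in 3 (9.68%) against 13.3%, and an NF-Y word in 14 (45.2%) against 32.0%. Among the 16 matched members that fell in all 3 lines, 1 held an E2F word, 1 a CHR word and 7 an NF-Y word, and among the other 15 the numbers were 2, 2 and 7. These counts are small and were not tested. Each member had 1 start, while the 35116 promoters were all entries and were not limited to expressed genes, so the shares come from unlike sets. Some of the windows searched, among them those of RAD51B and RBBP8, lie inside the span of the GENCODE gene. BRIP1 is shown as the member that fell in every line with both a CHR word and NF-Y words, and the other windows are those around the E2F words. Every E2F, CHR and NF-Y word, on either strand, is in capitals. The coordinates are GRCh38.p14 and all 5 are on the minus strand, so each runs 5′ to 3′ against the numbering.
BRIP1 at chr17:61863529-61863778, with 1 CHR word and 3 NF-Y words: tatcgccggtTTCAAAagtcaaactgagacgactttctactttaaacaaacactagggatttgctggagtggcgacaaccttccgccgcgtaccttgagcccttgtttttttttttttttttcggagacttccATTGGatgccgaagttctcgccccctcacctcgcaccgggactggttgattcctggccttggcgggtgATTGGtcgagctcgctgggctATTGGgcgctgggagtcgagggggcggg
FANCA at chr16:89816786-89816845: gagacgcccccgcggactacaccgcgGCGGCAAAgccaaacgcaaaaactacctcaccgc
FANCC at chr9:95317863-95317892: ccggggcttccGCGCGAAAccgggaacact
FANCC at chr9:95317737-95317766: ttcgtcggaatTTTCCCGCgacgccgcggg
PMS2 at chr7:6009130-6009189, with 1 E2F word and 1 NF-Y word: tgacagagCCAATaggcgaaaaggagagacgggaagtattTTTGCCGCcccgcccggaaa
The FANCC windows, cut to 30 bases, lie inside the span of the GENCODE gene and the others upstream of theirs, and a match describes the letters only.

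All 5 members of the BRCA complex and its mediators fell in Molm-14 and SKNO-1, and 4 of 5 fell in MV4-11. BRCA1 (ENSG00000012048, chr17:43044295-43170245 in GRCh38), the ubiquitin ligase that directs broken ends to recombination, read 51.2, 52.8 and 54.4 CPM with DMSO and 24.2, 21.1 and 21.3 CPM with RMC-4550 in Molm-14. It read 43.2, 63.4 and 41.1 with DMSO and 24.8, 35.1 and 29.1 with RMC-4550 for MV4-11 and 68.9, 61.4 and 61.7 with DMSO and 27.9, 24.3 and 25.9 with RMC-4550 for SKNO-1. The arms did not overlap in any line, and MV4-11 DMSO replicate 2 stood above its group. The log2 changes were -1.25 ± 0.15 (SE; limma adjusted p = 5.9e-06), -0.72 ± 0.15 (adjusted p = 0.00359) and -1.29 ± 0.15 (adjusted p = 7.6e-06), which are levels 2.38-fold, 1.64-fold and 2.46-fold lower. Over the alternatives the MV4-11 change of BRCA1 ran from -0.99 to -0.52. BARD1, its partner, fell by 1.13, 0.77 and 0.81 (log2) across the lines.

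BRCA2 (ENSG00000139618, chr13:32315474-32400266), a mediator of strand exchange, read 55.1, 54 and 58.9 CPM with DMSO and 45.6, 29 and 41 CPM with RMC-4550 in Molm-14. It read 34.5, 51.8 and 30.9 with DMSO and 18.9, 27.1 and 25.3 with RMC-4550 for MV4-11 and 37.3, 31.7 and 31.8 with DMSO and 18.6, 16.7 and 15.2 with RMC-4550 for SKNO-1. The arms did not overlap in any line, but Molm-14 RMC-4550 replicate 2 lay well under the other treated cultures. Its log2 changes were -0.56 ± 0.19 (SE; limma adjusted p = 0.024) in Molm-14, -0.70 ± 0.19 (adjusted p = 0.0235) for MV4-11 and -0.99 ± 0.19 (adjusted p = 0.00108) for SKNO-1. In Molm-14 the call was lost without RMC-4550 replicate 2 (-0.37), DMSO replicate 1 (-0.58) or DMSO replicate 3 (-0.53), and in MV4-11 without DMSO replicate 2 (-0.48) or RMC-4550 replicate 1 (-0.54). PALB2, which joins BRCA1 to BRCA2, fell by 0.72 in Molm-14 and 0.67 in SKNO-1 and was at -0.14 ± 0.14 (adjusted p = 0.58) in MV4-11.

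RAD51AP1 (ENSG00000111247, chr12:4538798-4560048), which takes part in strand exchange, had the largest fall of the members in MV4-11. It read 32, 31.5 and 36.9 CPM with DMSO and 15.7, 13.4 and 11.9 CPM with RMC-4550 there. The corresponding levels were 28.2, 26.6 and 27.5 with DMSO and 8.85, 8.71 and 8.77 with RMC-4550 in Molm-14 and 29.3, 30.2 and 30.9 with DMSO and 10.4, 9.7 and 9.75 with RMC-4550 in SKNO-1. Replicates were close and the arms were far apart in all lines. Its log2 change was -1.29 ± 0.10 (SE; limma adjusted p = 3.7e-07) in MV4-11, -1.64 ± 0.10 (adjusted p = 8.7e-09) in Molm-14 and -1.60 ± 0.10 (adjusted p = 2.1e-08) in SKNO-1, and each held under every alternative.

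**Figure D2:**
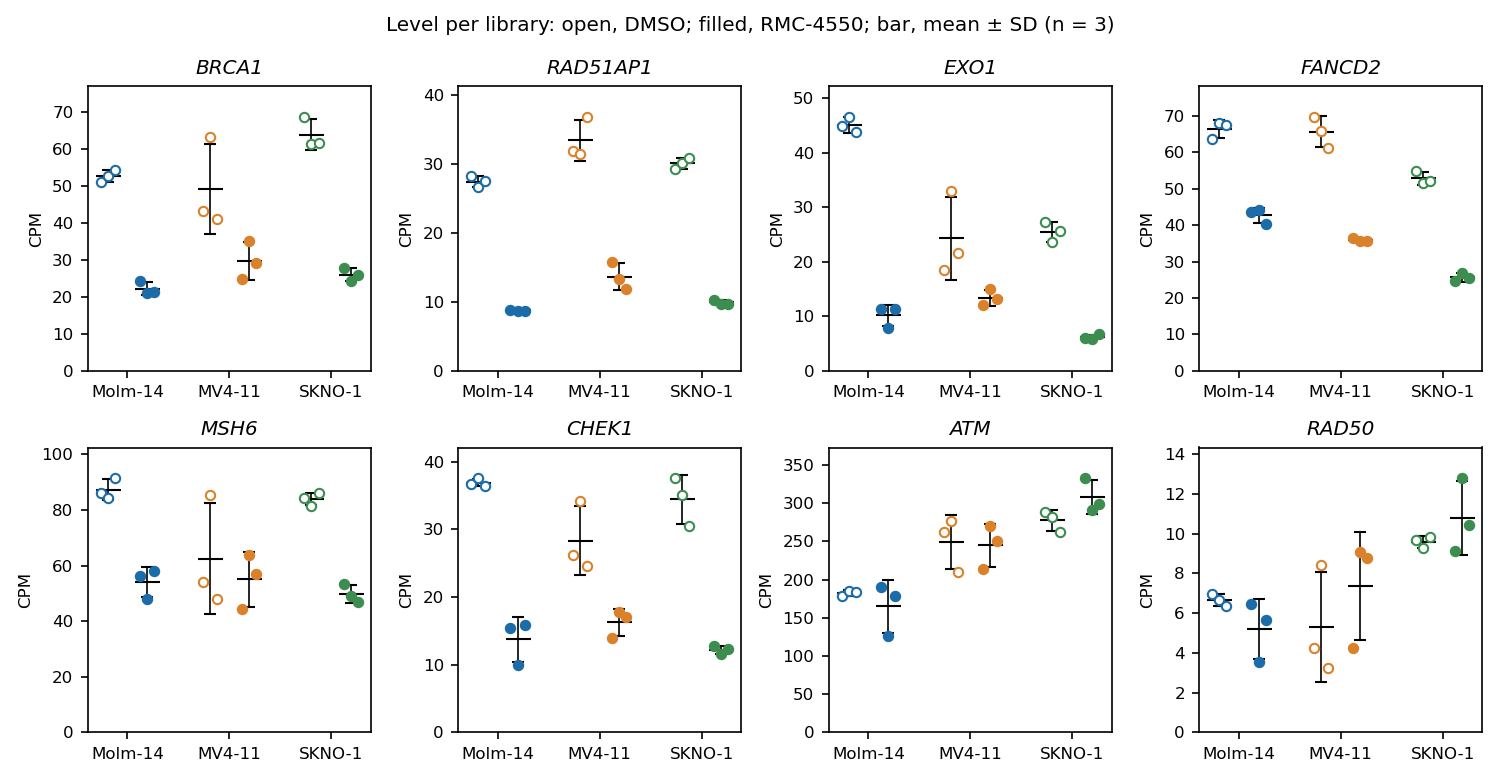
The y axis of each panel is the level of 1 gene in CPM from 0, with open points for DMSO libraries, filled points for RMC-4550 libraries and a bar at the mean ± SD (n = 3). For RAD51AP1 and FANCD2 the arms stand apart in each line, while for RAD50 they overlap in each line and for ATM in Molm-14 and MV4-11. The orange MV4-11 DMSO points of BRCA1, EXO1, MSH6 and CHEK1 hold 1 high library.

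RAD51B, RAD51C, RAD51D, XRCC2 and XRCC3 are related proteins that form complexes in recombination, and 4 of 5 fell in Molm-14, against 3 in MV4-11 and 4 in SKNO-1. XRCC2 (ENSG00000196584, chr7:152644779-152676165) changed most of these 5. Its level was 19.1, 19.95 and 21.3 CPM with DMSO and 6.12, 5.25 and 8.2 CPM with RMC-4550 in Molm-14, where every treated library was under every control. The same separation held in MV4-11, with 16.3, 19.2 and 16 with DMSO and 8.13, 10.7 and 9.39 with RMC-4550, and in SKNO-1, with 19.4, 18.4 and 17.8 with DMSO and 5.6, 5.24 and 4.97 with RMC-4550. Its log2 changes were -1.64 ± 0.15 (SE; limma adjusted p = 3.7e-07), -0.87 ± 0.15 (adjusted p = 0.0008) and -1.81 ± 0.15 (adjusted p = 2.4e-07) in that order. RAD51C fell by 0.78, 0.44 and 0.47 and RAD51D by 0.61, 0.32 and 0.73 (log2) across the lines. In MV4-11 the RAD51C call was lost without DMSO replicate 2 or 3, without RMC-4550 replicate 1 or 3, and without the 4 libraries with a high mitochondrial share (-0.44), and the RAD51D call without DMSO replicate 1 or RMC-4550 replicate 2. In SKNO-1 the RAD51C call was lost without DMSO replicate 1 (-0.40) or RMC-4550 replicate 3 (-0.41).

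RAD51B fell in Molm-14 by 0.78, from levels of no more than 3.29 CPM, a call that was lost in a separate fit of that line. Its change was -0.25 ± 0.22 (adjusted p = 0.51) for MV4-11 and -0.39 ± 0.22 (adjusted p = 0.20) for SKNO-1. A difference of its response between lines did not pass the test (limma adjusted p = 0.21 for Molm-14 against MV4-11). XRCC3 fell in SKNO-1, by 0.54, and was at 0.03 ± 0.14 (adjusted p = 0.88) in Molm-14 and -0.41 ± 0.14 (adjusted p = 0.0654) in MV4-11. Of the exonic bases of XRCC3, 76.7% lie under exons of KLC1 on the other strand, and the labels do not say whether counting used strand, so reads of these genes cannot be told apart. KLC1 rose by 0.39 in Molm-14 and was at -0.12 in SKNO-1 (limma adjusted p = 0.0101 and 0.46).

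RAD54L and RAD54B are translocases that remodel DNA during the strand search, and both fell in all 3 lines. RAD54L (ENSG00000085999, chr1:46247688-46278473) read 20.9, 21 and 21.6 CPM with DMSO and 8.64, 8.2 and 7.86 CPM with RMC-4550 in Molm-14. It read 15, 20.2 and 15.2 with DMSO and 9.77, 10.5 and 9.34 with RMC-4550 for MV4-11 and 20.4, 23.2 and 19.2 with DMSO and 7.12, 6.12 and 4.83 with RMC-4550 for SKNO-1, with no overlap of the arms. SKNO-1 had the lowest treated levels of the 3 lines. The log2 changes were -1.36 ± 0.14 (SE; limma adjusted p = 1.8e-06), -0.75 ± 0.14 (adjusted p = 0.00182) and -1.81 ± 0.14 (adjusted p = 1.9e-07). RAD54B fell by 0.58, 0.96 and 1.003 from levels of at most 6.52 CPM. Its call in Molm-14, at an adjusted p of 0.0431, was lost under 12 alternatives, among them the omission of each DMSO library and of RMC-4550 replicate 1 or 3 of that line, and its call in MV4-11 without RMC-4550 replicate 3 (-0.82). FSBP, which covers 59.1% of the exonic bases of RAD54B on the same strand, fell by 1.28 in Molm-14 (limma adjusted p = 0.00641), and how the counter shared such reads is not given in the sources used here.

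Of the 8 measured subunits of the Fanconi core complex and its anchor, 5 fell in Molm-14, against 4 in MV4-11 and 5 in SKNO-1. FANCA (ENSG00000187741, chr16:89737549-89816657), a large scaffold subunit shown above with an E2F word, read 47, 52.9 and 51.4 CPM with DMSO and 23.7, 18.1 and 21.7 CPM with RMC-4550 in Molm-14. It read 53.4, 52.1 and 50.1 with DMSO and 31.1, 39.4 and 37.7 with RMC-4550 for MV4-11 and 42.2, 45.4 and 44.2 with DMSO and 19.2, 22.1 and 19.9 with RMC-4550 for SKNO-1. The arms did not overlap in any line. The log2 changes were -1.26 ± 0.11 (SE; limma adjusted p = 2.4e-07), -0.53 ± 0.11 (adjusted p = 0.00346) and -1.11 ± 0.11 (adjusted p = 1.6e-06). FANCM, the translocase that brings the complex to DNA, fell by 0.78, 0.72 and 1.08.

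FANCB, a subunit of the catalytic module, was among the 3 largest falls in every line but was read at low levels. It read 3.39, 4.38 and 3.73 CPM with DMSO and 1.69, 1.15 and 0.848 CPM with RMC-4550 in Molm-14. In MV4-11 it read 3.98, 3.48 and 2.99 with DMSO and 1.48, 1.37 and 1.62 with RMC-4550, and in SKNO-1 3.23, 3.26 and 4.002 with DMSO and 1.02, 0.974 and 0.598 with RMC-4550. The arms did not overlap, and the lowest value, in SKNO-1, was 0.598 CPM. Its log2 changes were -1.66 ± 0.25 (SE; limma adjusted p = 6.5e-05), -1.21 ± 0.25 (adjusted p = 0.0038) and -2.02 ± 0.25 (adjusted p = 1.9e-05). Of its treated libraries only replicate 1 reached 1 CPM in SKNO-1, and replicate 3 did not in Molm-14. In both lines FANCB needed its DMSO libraries to pass the filter, which favoured a fall, so those calls lend little support. Both are still counted among the falls and among the calls that held.

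FANCG, a core subunit bound to FANCA, had the lowest read of any member in a library, 7 reads in Molm-14. It read 2.48, 2.35 and 2.75 CPM with DMSO and 1.32, 1.16 and 0.863 CPM with RMC-4550 in MV4-11. In SKNO-1 it read 2.68, 2.75 and 2.59 with DMSO and 0.648, 0.928 and 0.69 with RMC-4550, and in Molm-14 1.39, 1.5 and 1.06 with DMSO and 0.383, 1.41 and 1.19 with RMC-4550. The arms were apart in MV4-11 and SKNO-1 and overlapped in Molm-14, where replicate 1 alone of the treated cultures was low. Its log2 changes were -1.18 ± 0.35 (SE; limma adjusted p = 0.0361) in MV4-11, -1.81 ± 0.35 (adjusted p = 0.00122) in SKNO-1 and -0.57 ± 0.35 (adjusted p = 0.20) in Molm-14. In SKNO-1 it passed the filter only through its DMSO libraries, which favoured a fall, so the SKNO-1 call lends no support. That call is nonetheless counted among the falls of SKNO-1 and among those that held under every alternative. The MV4-11 call was lost without DMSO replicate 1 or 3, without RMC-4550 replicate 2 or 3, and without the 4 libraries with a high mitochondrial share (-1.21), while the Molm-14 change was called without RMC-4550 replicate 2 (-0.91).

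FANCE, which links the core complex to FANCD2, read 51.1, 56.1 and 59.9 CPM with DMSO and 40.01, 21.8 and 36.4 CPM with RMC-4550 in Molm-14. It read 39.1, 58.5 and 34.8 with DMSO and 36, 49.1 and 53.7 with RMC-4550 for MV4-11 and 38.8, 40.6 and 41.2 with DMSO and 29.1, 34.8 and 31.2 with RMC-4550 for SKNO-1. Only Molm-14 gave a call, at -0.81 ± 0.21 (SE; limma adjusted p = 0.00574), against 0.09 ± 0.21 (adjusted p = 0.85) in MV4-11, where the arms overlapped, and -0.35 ± 0.21 (adjusted p = 0.26) in SKNO-1, where they did not. Molm-14 RMC-4550 replicate 2 was the lowest of its group, and without the 4 libraries the Molm-14 change was -0.54 and that of SKNO-1 was -0.35, both called. FANCC fell by 0.88 in Molm-14 and 1.03 in SKNO-1 and was at -0.34 in MV4-11, or -0.63 and called without the 4 libraries. FANCL, the ubiquitin ligase subunit itself, stayed between -0.12 and -0.07, and FANCF, an adaptor, between -0.18 and 0.09, with no call in any line and overlapping arms in all.

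The pair that the core complex marks with ubiquitin, FANCD2 and FANCI, fell in every line, and so did BRIP1, the helicase that works with BRCA1. FANCD2 (ENSG00000144554, chr3:10026414-10101930) read 63.7, 68 and 67.6 CPM with DMSO and 43.5, 44.3 and 40.3 CPM with RMC-4550 in Molm-14. It read 69.8, 65.8 and 61.3 with DMSO and 36.4, 35.7 and 35.8 with RMC-4550 for MV4-11 and 55, 51.5 and 52.1 with DMSO and 24.6, 27 and 25.4 with RMC-4550 for SKNO-1. The controls were alike within each line and the arms stood well apart. FANCD2 fell 1.56-fold, 1.82-fold and 2.06-fold, with log2 changes of -0.64 ± 0.07 (SE; limma adjusted p = 4.5e-06), -0.87 ± 0.07 (adjusted p = 9.2e-07) and -1.04 ± 0.07 (adjusted p = 5.3e-08). FANCI fell by 1.29, 1.004 and 1.52. The annotation names FANCD2P2, an unprocessed pseudogene, after FANCD2, and whether reads were shared with it is not known.

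BRIP1 (ENSG00000136492, chr17:61681266-61863521), whose upstream sequence is printed above, read 27.9, 27.2 and 25.7 CPM with DMSO and 8.96, 6.53 and 8.37 CPM with RMC-4550 in Molm-14. It read 20.8, 25.8 and 19.2 with DMSO and 11, 13.4 and 11.4 with RMC-4550 for MV4-11 and 28.5, 27 and 25.3 with DMSO and 10.4, 9.65 and 8.46 with RMC-4550 for SKNO-1. The DMSO levels were alike in Molm-14 and SKNO-1, while MV4-11 had the highest treated levels. The log2 changes were -1.77 ± 0.14 (SE; limma adjusted p = 9.6e-08), -0.87 ± 0.14 (adjusted p = 0.000408) and -1.50 ± 0.14 (adjusted p = 7.5e-07), and all 3 calls held under every alternative.

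Among the genes of break sensing, resection and dissolution, 4 of 5 fell in Molm-14, against 1 in MV4-11 and 3 in SKNO-1. EXO1 (ENSG00000174371, chr1:241847967-241895148), the exonuclease that lengthens resected ends and also acts in mismatch repair, had the largest fall of the members in Molm-14 and SKNO-1. It read 44.9, 46.6 and 43.7 CPM with DMSO and 11.3, 7.94 and 11.3 CPM with RMC-4550 in Molm-14, 4.47-fold lower, with a log2 change of -2.16 ± 0.18 (SE; limma adjusted p = 1.7e-07). In SKNO-1 it read 27.2, 23.6 and 25.6 with DMSO and 6.11, 5.89 and 6.71 with RMC-4550, with a change of -2.03 ± 0.18 (adjusted p = 5.3e-07). In MV4-11 it read 18.5, 32.9 and 21.5 with DMSO and 12, 14.9 and 13.1 with RMC-4550, where DMSO replicate 2 exceeded the other controls, and the change was -0.82 ± 0.18 (adjusted p = 0.00513), or -1.23 without the 4 libraries. Every treated library was below every control in all 3 lines.

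BLM, the helicase that with its partners dissolves joined DNA strands, read 74.7, 80.7 and 80.6 CPM with DMSO and 34, 24.4 and 31.8 CPM with RMC-4550 in Molm-14. It read 36.6, 59.5 and 37.2 with DMSO and 25.6, 36.8 and 34 with RMC-4550 for MV4-11 and 45.1, 43.6 and 38 with DMSO and 21.2, 17.5 and 19.95 with RMC-4550 for SKNO-1. Its arms were apart in Molm-14 and SKNO-1 and met in MV4-11, where 1 treated library lay among the controls. In log2 terms the changes came to -1.40 ± 0.18 (SE; limma adjusted p = 1.4e-05), -0.45 ± 0.18 (adjusted p = 0.12) and -1.11 ± 0.18 (adjusted p = 0.000243), and without the 4 libraries the MV4-11 change was -0.75 and called. RBBP8, which starts resection, had the same pattern of calls, with -1.34, -0.49 and -1.29, and -0.79 and called in MV4-11 without the 4 libraries.

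NBN (ENSG00000104320), the sensor subunit that brings ATM to breaks, read 110.0, 110.0 and 105 CPM with DMSO and 77.9, 49.96 and 72.3 CPM with RMC-4550 in Molm-14. It read 60.7, 96.5 and 62.5 with DMSO and 62.2, 83.7 and 67.3 with RMC-4550 for MV4-11 and 86.6, 75.4 and 78.7 with DMSO and 80.8, 68.4 and 71.5 with RMC-4550 for SKNO-1. The arms were apart only in Molm-14, where RMC-4550 replicate 2 was the lowest. The fit put its log2 change at -0.72 ± 0.18 (SE; limma adjusted p = 0.00352), -0.02 ± 0.18 (adjusted p = 0.96) and -0.13 ± 0.18 (adjusted p = 0.65), and the MV4-11 change was -0.36 and called without the 4 libraries. RAD50, the long structural subunit of the same complex, was not called, with -0.40 ± 0.33 (adjusted p = 0.33), 0.51 ± 0.33 (adjusted p = 0.36) and 0.15 ± 0.33 (adjusted p = 0.78). An overlapping gene model on the same strand, AC116366.3, covers 79.7% of its exonic bases, and RAD50 was read at only 3.23 to 12.8 CPM, so its values are uncertain.

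**Figure D3:**
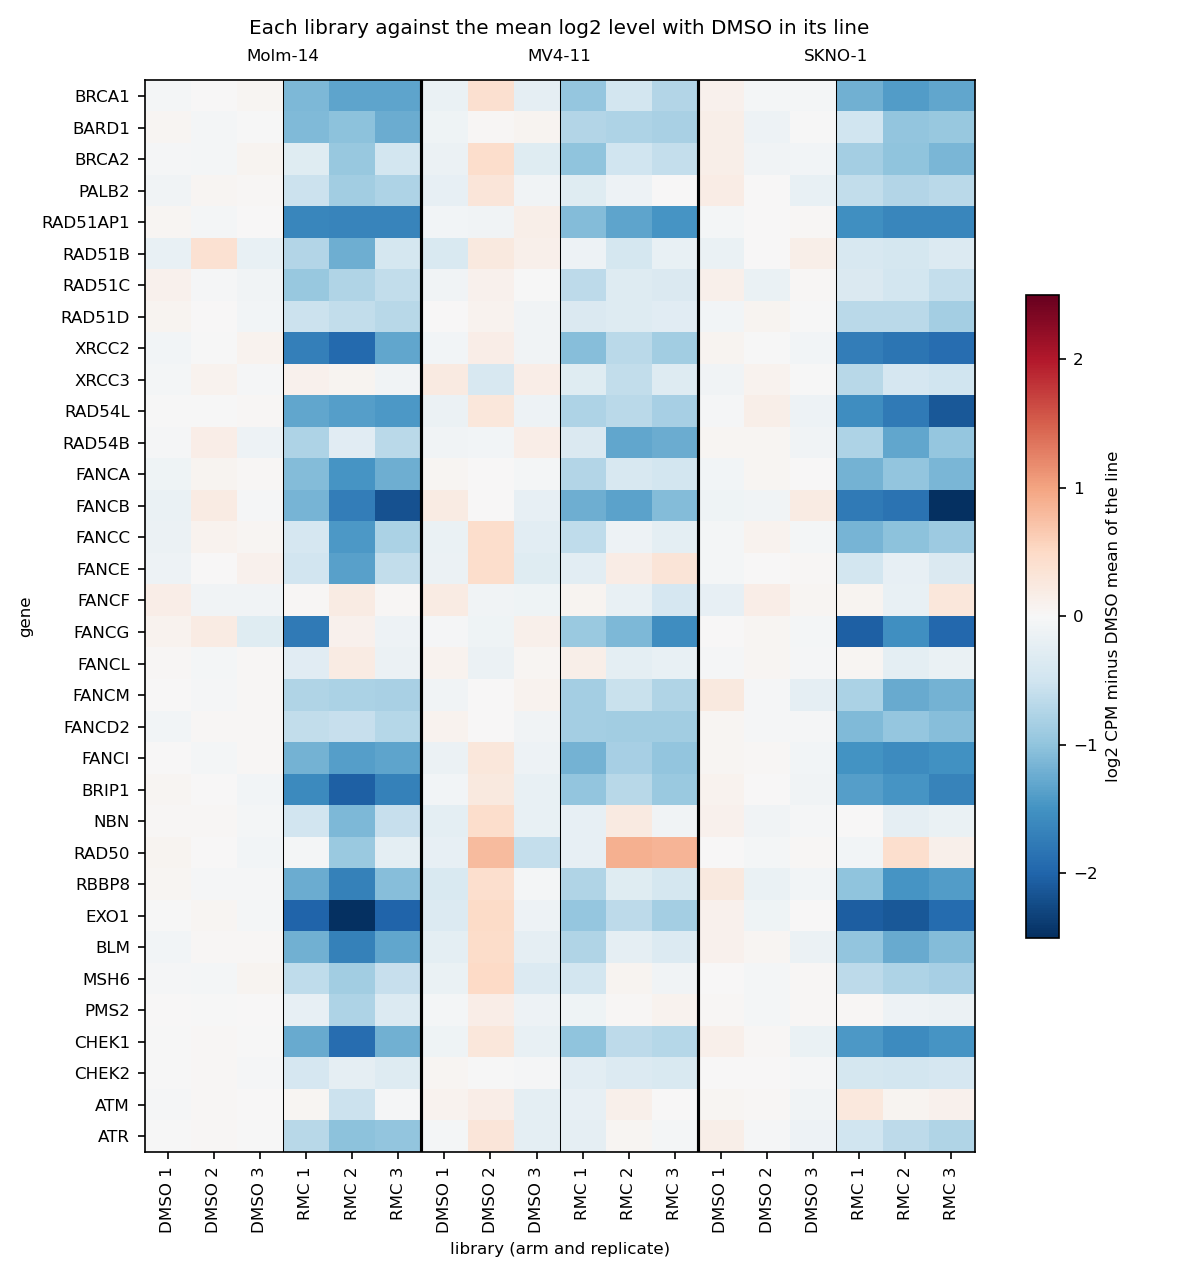
Rows are the 34 members and columns the 18 libraries by line, arm and replicate, and colour is the log2 CPM of a library minus the mean log2 CPM of the DMSO libraries of its line (blue lower, red higher). Blue fills most rows of the RMC-4550 columns of Molm-14 and SKNO-1, while in MV4-11 the DMSO replicate 2 column is red in many rows and the treated columns are paler.

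Both mismatch repair members fell in Molm-14, 1 fell in SKNO-1 and neither in MV4-11. MSH6 (ENSG00000116062, chr2:47695530-47810101), part of the dimer that finds single mismatches, read 86, 84.5 and 91.5 CPM with DMSO and 56.2, 47.8 and 58.3 CPM with RMC-4550 in Molm-14. It read 54.1, 85.4 and 48.1 with DMSO and 44.3, 63.9 and 56.8 with RMC-4550 for MV4-11 and 84.3, 81.5 and 86 with DMSO and 53.4, 49.1 and 47.1 with RMC-4550 for SKNO-1. The arms overlapped in MV4-11, where DMSO replicate 2 was the highest of the 6 libraries and RMC-4550 replicate 1 the lowest, and they did not overlap in the other lines. In log2 terms the changes came to -0.69 ± 0.17 (SE; limma adjusted p = 0.00327), -0.16 ± 0.17 (adjusted p = 0.62) and -0.75 ± 0.17 (adjusted p = 0.00334), and -0.50 with a call in MV4-11 without the 4 libraries.

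PMS2 (ENSG00000122512, chr7:5973239-6009125), part of the endonuclease that acts after recognition, read 29.1, 28.5 and 29 CPM with DMSO and 24.9, 16.8 and 22.7 CPM with RMC-4550 in Molm-14. It read 28.8, 33.8 and 27.5 with DMSO and 27.6, 30.7 and 31.8 with RMC-4550 for MV4-11 and 40.6, 38.3 and 40.6 with DMSO and 40.7, 36.7 and 35.8 with RMC-4550 for SKNO-1. The arms overlapped in MV4-11 and SKNO-1. By limma it changed in log2 by -0.44 ± 0.12 (SE; limma adjusted p = 0.00756), 0.00 ± 0.12 (adjusted p = 0.99) and -0.08 ± 0.12 (adjusted p = 0.68), and the Molm-14 call was lost in a separate fit of that line. The near-identical copy PMS2CL moved the same way in Molm-14, at -0.55 (limma adjusted p = 0.00282), and reads may be split between them.

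The checkpoint kinases divided by gene: CHEK1 and CHEK2 fell in every line, ATR in Molm-14 and SKNO-1, and ATM in none. CHEK1 (ENSG00000149554, chr11:125625136-125676255), the effector of ATR, read 36.8, 37.5 and 36.4 CPM with DMSO and 15.4, 9.93 and 15.9 CPM with RMC-4550 in Molm-14. It read 26.2, 34.2 and 24.7 with DMSO and 13.9, 17.8 and 17 with RMC-4550 for MV4-11 and 37.6, 35.2 and 30.6 with DMSO and 12.7, 11.6 and 12.3 with RMC-4550 for SKNO-1. No treated library reached a control of its line. The fit put its log2 change at -1.45 ± 0.16 (SE; limma adjusted p = 4.3e-06), -0.79 ± 0.16 (adjusted p = 0.00391) and -1.49 ± 0.16 (adjusted p = 6.1e-06). CHEK2, the effector of ATM, fell by 0.32, 0.33 and 0.44.

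ATR (ENSG00000175054, chr3:142449235-142578826), the kinase of stalled replication forks, read 36.2, 37 and 36.3 CPM with DMSO and 22.5, 18 and 18.3 CPM with RMC-4550 in Molm-14. It read 21.6, 27.8 and 18.9 with DMSO and 19.3, 23.2 and 21.6 with RMC-4550 for MV4-11 and 26.3, 23.2 and 21.6 with DMSO and 16.7, 15.1 and 14.1 with RMC-4550 for SKNO-1. The arms overlapped in MV4-11 only. By limma it changed in log2 by -0.90 ± 0.13 (SE; limma adjusted p = 6.4e-05), -0.08 ± 0.13 (adjusted p = 0.77) and -0.63 ± 0.13 (adjusted p = 0.00243).

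ATM (ENSG00000149311, chr11:108222484-108369102), the kinase of double-strand breaks, read 178, 185 and 183 CPM with DMSO and 189.8, 126 and 179 CPM with RMC-4550 in Molm-14. It read 262, 276 and 209 with DMSO and 214, 269.9 and 250.3 with RMC-4550 for MV4-11 and 288, 282 and 262 with DMSO and 333, 291 and 299 with RMC-4550 for SKNO-1. In SKNO-1 the treated libraries all lay above the controls, and in Molm-14 only RMC-4550 replicate 2 lay below them. In log2 terms the changes came to -0.17 ± 0.14 (SE; limma adjusted p = 0.33), -0.02 ± 0.14 (adjusted p = 0.95) and 0.15 ± 0.14 (adjusted p = 0.48). In SKNO-1 the rise was called without the 4 libraries, at 0.15 (limma adjusted p = 0.034), which are all from the other lines and enter through the shared estimate of spread.

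Other members share exonic bases with a neighbour: RAD54L with LRRC41 (25.1% of its bases), FANCA with ZNF276 (23.6%), FANCL with VRK2 (18.7%) and MSH6 with FBXO11 (16.2%). None of these 4 neighbours was called in any line. ATR shares 16.4% of its bases with the pseudogene AC109992.1, which is not among the deposited gene IDs, and FANCF shares 11.3% with GAS2. CHEK2, RAD51AP1 and RBBP8 have pseudogene copies, as FANCD2 does, so their reads are uncertain to that extent.

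The lines were then compared in how far members fell. SKNO-1 responded beyond the mean of Molm-14 and MV4-11 in 1 of 34 members, RAD54L, at -0.75 ± 0.17 (SE; limma adjusted p = 0.0216), where 2.46% of all genes tested were called lower and 1.36% higher. This share of members is near that of all genes. The call was lost without SKNO-1 DMSO replicate 1 or 2 or RMC-4550 replicate 3, when no member was called. The count was 3 without MV4-11 DMSO replicate 2 and 2 without Molm-14 RMC-4550 replicate 1 or 2. For these single omissions the share of all genes called was not computed. Without the 4 libraries with a high mitochondrial share 8 members were called lower, where 11.3% of genes tested were called lower and 7.28% higher.

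Molm-14 responded beyond MV4-11 in 9 of 34 members, and no member the other way, where 9.14% of genes tested were lower and 10.4% higher. The 9 were EXO1, BLM, FANCE, BRIP1, RBBP8, ATR, XRCC2, FANCA and RAD54L. The difference of log2 changes was -1.33 ± 0.25 (SE; limma adjusted p = 0.00256) for EXO1, -0.95 ± 0.25 (adjusted p = 0.0175) for BLM, -0.90 ± 0.19 (adjusted p = 0.00599) for BRIP1 and -0.90 ± 0.30 (adjusted p = 0.0491) for FANCE. EXO1, BRIP1, FANCA and ATR kept the call under every alternative. The count moved with single libraries: it was 4 without MV4-11 DMSO replicate 1, DMSO replicate 3 or RMC-4550 replicate 2, 15 without RMC-4550 replicate 1 and 19 without DMSO replicate 2. The share of all genes called was not computed for these single omissions, so these counts cannot be set against it. Without the 4 libraries it was 5 lower and 1 higher, where 7.52% and 9.32% of genes tested were called. The part of the mitochondrial share in these differences was not tested beyond these values.

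Levels with DMSO also differed between the lines. SKNO-1 was lower than Molm-14 for 16 members and higher for 5, where 33.3% and 27.4% of genes tested were called. Without the 4 libraries the counts were 18 and 7, where 43.0% and 35.6% of genes tested were called. FANCF was at 13.9 ± 1.47 CPM (SD, n = 3) in Molm-14, 10.1 ± 1.24 for MV4-11 and 6.07 ± 0.753 for SKNO-1, a log2 difference of -1.19 ± 0.16 (SE; limma adjusted p = 6e-06) between SKNO-1 and Molm-14. RBBP8 was at 49.3 ± 1.26 CPM for Molm-14, 23.4 ± 6.61 for MV4-11 and 23.5 ± 3.55 for SKNO-1. RAD51C was at 20.1 ± 1.44, 12.2 ± 0.821 and 9.91 ± 1.03 CPM, so Molm-14 was above both other lines for all 3 genes, which did not differ between MV4-11 and SKNO-1 beyond the test for RBBP8 (limma adjusted p = 0.91) and RAD51C (0.0698) but did for FANCF (0.00185).

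The 5 members higher in SKNO-1 than in Molm-14 were RAD51B, FANCG, CHEK2, ATM and PMS2. CHEK2 was at 36.8 ± 0.868 CPM for Molm-14, 51.9 ± 1.53 for MV4-11 and 59.3 ± 0.817 for SKNO-1, and each step of that order was called, at 0.50 ± 0.07 (SE; limma adjusted p = 2.6e-05) and 0.19 ± 0.07 (adjusted p = 0.0375), the latter lost under 8 alternatives. ATM was at 182 ± 3.5, 249 ± 35.1 and 277 ± 13.7 CPM, with MV4-11 and SKNO-1 not called apart (limma adjusted p = 0.36). RAD51B was at 2.58 ± 0.613, 3.83 ± 0.815 and 6.28 ± 0.671 CPM, a difference of 1.29 ± 0.22 (adjusted p = 7.9e-05) between SKNO-1 and Molm-14.

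MV4-11 was lower than Molm-14 for 14 members and higher for 5, where 30.0% and 21.7% of genes tested were called. SKNO-1 was lower than MV4-11 for 4 members (XRCC3, FANCF, BARD1 and FANCD2) and higher for 6 (BRCA1, RAD51B, RAD50, MSH6, PMS2 and CHEK2), where 20.6% and 19% of genes tested were called. These counts moved when single control libraries were left out, and the share of all genes called was not computed for single omissions. For MV4-11 against Molm-14 the count lower was 7 without MV4-11 DMSO replicate 1 or 3, 8 without Molm-14 DMSO replicate 3 and 8 without the 4 libraries (25.8% of genes tested), and the count higher was 2 or 3 without any 1 control library of either line except MV4-11 DMSO replicate 2. For SKNO-1 against MV4-11 the count higher was 0 without MV4-11 DMSO replicate 1 and 1 without DMSO replicate 3, it was 1 or 2 without any 1 SKNO-1 DMSO library, and without the 4 libraries 10 members were lower and 2 higher, where 24.2% and 15.5% of genes tested were called. Of the genes of break sensing and resection, RBBP8, EXO1, BLM and NBN were each called lower in MV4-11 and in SKNO-1 than in Molm-14, at -0.93 and -0.82 for EXO1, and the calls of RBBP8, EXO1 and BLM held under every alternative. For NBN the call in MV4-11 was lost under 3 alternatives and that in SKNO-1 under 12.

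**Figure D4:**
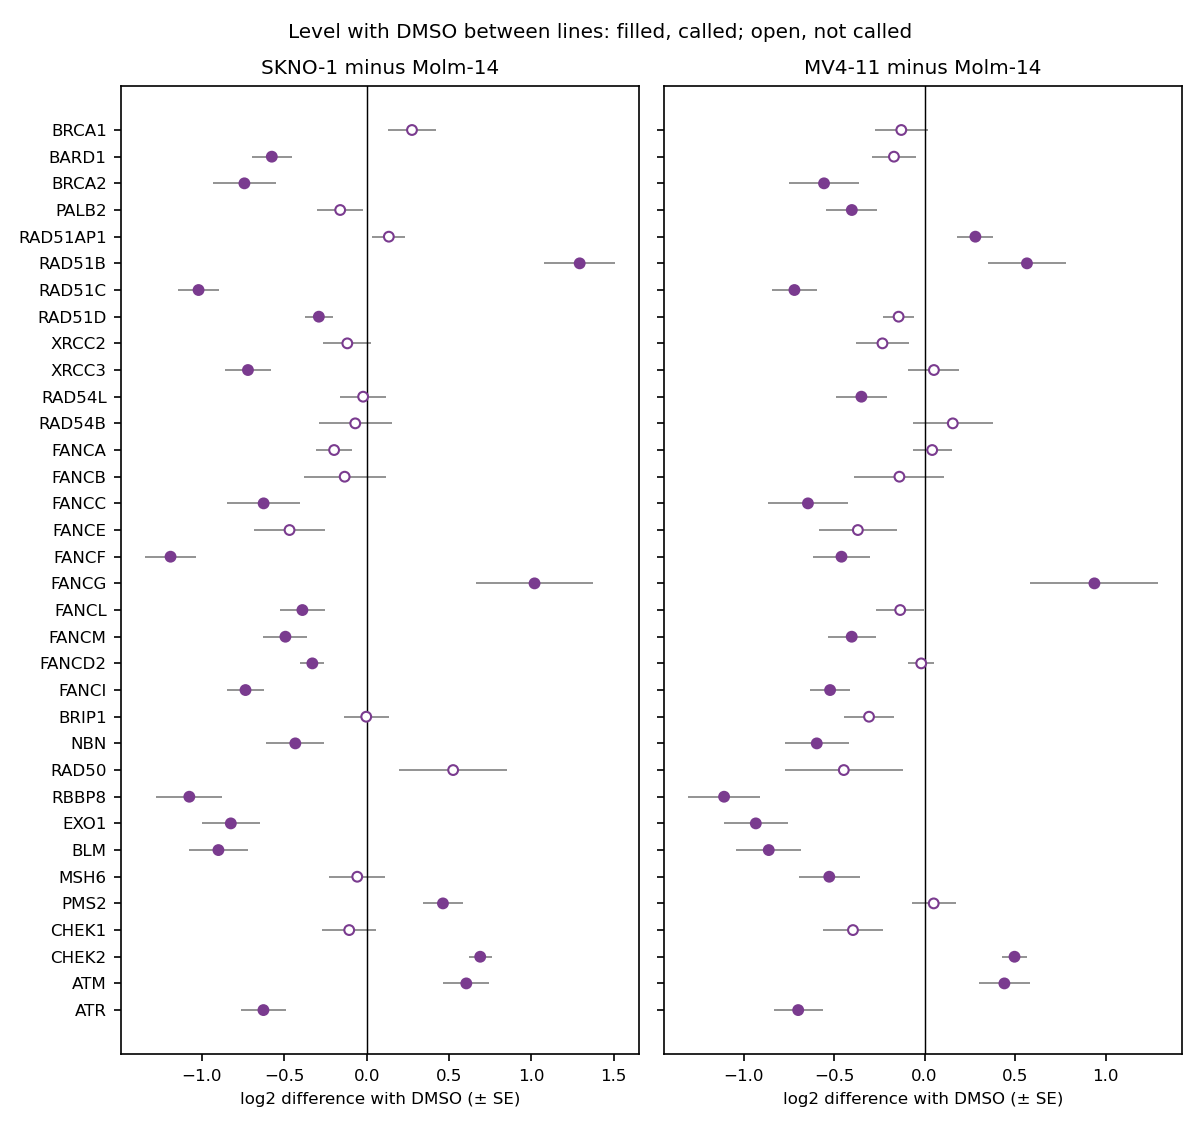
The x axis of each panel is the log2 difference of the level with DMSO between lines (limma estimate ± SE), SKNO-1 minus Molm-14 on the left and MV4-11 minus Molm-14 on the right, with a row for each member; filled points were called. RBBP8, EXO1, BLM and ATR lie left of 0 in both panels and CHEK2, ATM, RAD51B and FANCG right of it.

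Other genes of these pathways were taken from lists of pathway membership. For these and the lists that follow, 25.2%, 8.05% and 16.2% of all genes tested were called lower. The shares of all genes called higher were 21.5%, 5.89% and 10.8%. Of 33 other recombination and Fanconi genes tested, 16 fell and 2 rose in Molm-14, against 12 fell in MV4-11 and 15 fell and 1 rose in SKNO-1, with median log2 changes of -0.35, -0.25 and -0.37. UBE2T, the enzyme that passes ubiquitin to FANCD2, was at -1.47, -1.09 and -1.47 in log2 change across the lines, and RMI2, a partner of BLM, at -1.19, -1.02 and -1.69. POLQ, the polymerase of the alternative end joining route, was at -1.36, -1.04 and -1.46. All of these falls were called. Of 14 other checkpoint genes 11, 4 and 10 fell, among them CLSPN, the mediator between ATR and CHEK1, at -1.38, -1.16 and -2.27, TIPIN at -1.47, -0.60 and -0.73 and TIMELESS at -1.03, -0.61 and -1.13. Of 3 other mismatch repair genes, 2 fell in Molm-14, against 0 in MV4-11 and 1 in SKNO-1.

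Genes of the other repair routes were counted in the same way. Of the end joining genes, 8 of 16 fell and 2 rose in Molm-14, 1 of 16 fell in MV4-11, and 4 of 15 fell and 2 rose in SKNO-1, with MAD2L2 falling in all, at -0.57, -0.51 and -0.75. Of 16 base excision genes, 7 fell and 3 rose in Molm-14, 3 fell and 1 rose in MV4-11, and 5 fell and 1 rose in SKNO-1. NEIL3, a glycosylase of dividing cells, fell at -1.46, -0.68 and -1.58 and PARP2 at -0.47, -0.48 and -0.73, while OGG1, which removes oxidised guanine, rose at 0.48, 0.37 and 0.42. Of 17 nucleotide excision genes, 6 fell and 1 rose in Molm-14, against 2 and 1 in MV4-11 and 2 and 1 in SKNO-1. ERCC1 was the riser each time, at 0.42, 0.33 and 0.39. The shares called lower were 50%, 6.25% and 26.67% for end joining, 43.75%, 18.75% and 31.25% for base excision and 35.29%, 11.76% and 11.76% for nucleotide excision. Those of end joining in MV4-11 and of nucleotide excision in MV4-11 and SKNO-1 were near the share of all genes. They are therefore not a result about these routes. Differences between the lists were not tested.

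Genes of proliferation moved with the members. Of 21 such genes, 21 fell in Molm-14, against 14 in MV4-11 and 20 in SKNO-1, with median log2 changes of -1.50, -0.64 and -1.44, and CDC45, a replication fork helicase subunit, was at -1.86, -1.26 and -2.28, RRM2, which makes deoxynucleotides, at -2.08, -1.002 and -1.91 and MCM4 at -1.81, -0.64 and -2.06. The part of proliferation in the fall of the members was not tested.

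**Figure D5:**
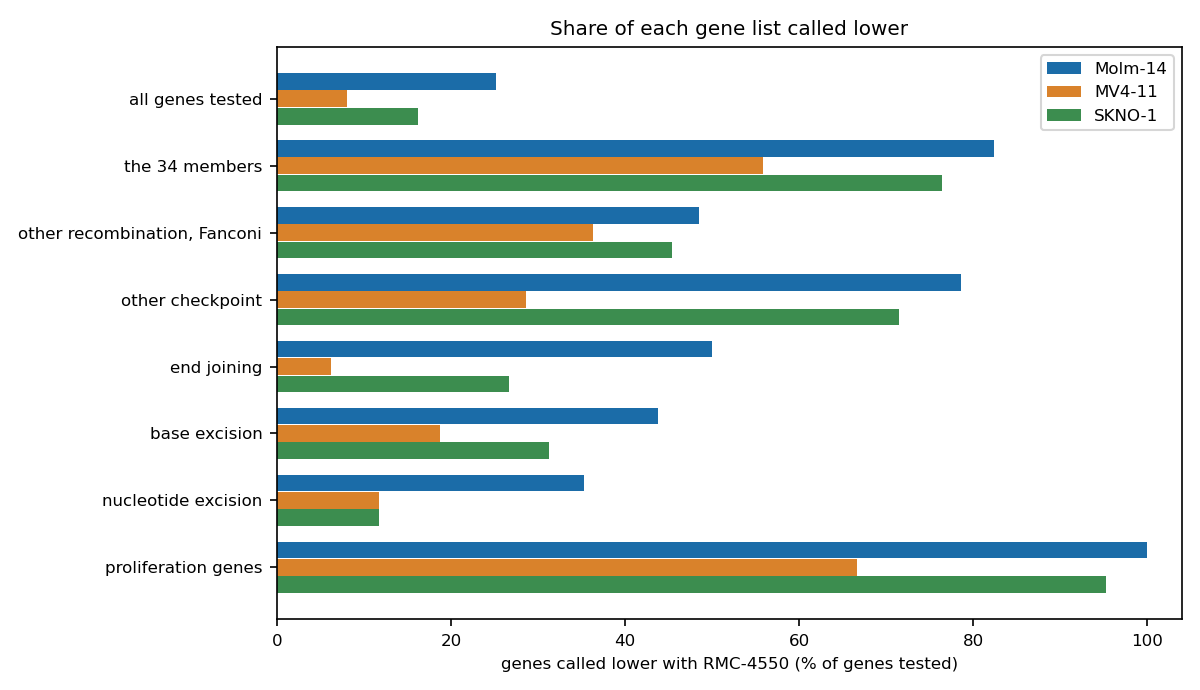
Bars give the percent of the tested genes of each list called lower with RMC-4550 in Molm-14 (blue), MV4-11 (orange) and SKNO-1 (green), from 0. The members stand at 82.4%, 55.9% and 76.5%, above the 25.2%, 8.05% and 16.2% of all genes tested and below the proliferation list.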

How the data were processed

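RNA-seq of polyadenylated RNA from 18 cultures of cell lines was used. The submitters' processing notes name GRCh38, FastQC, STAR and limma, without roles; the counter, annotation and use of strand are not given in the sources used here. The deposited table holds log2 values made by the authors, from their form log2 of reads plus 0.5 scaled to CPM of an effective library. Undoing that form gave whole reads (within 0.05) for 100% of values under 20 reads. Levels in CPM come from those reads.

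Differences were tested in R 4.3.3 by limma 3.58.1 (linear fits with eBayes moderation and a trend, two-sided), in 1 fit of the 18 libraries with a coefficient per group, on genes that reached 1 CPM in 3 or more libraries of each line compared. P-values were adjusted by Benjamini-Hochberg over all genes tested, with a call at an adjusted p under 0.05. The fitting code was tested on simulated data. The members and gene lists were chosen with earlier results of these data known. The genes given per library were set by a rule: the 3 largest called changes in each line, up to 3 members called in each comparison of responses, and 11 anchors of the groups (BRCA1, BRCA2, FANCA, FANCD2, EXO1, NBN, MSH6, PMS2, CHEK1, ATM and ATR), with up to 3 genes of each other list called in 1 direction in all lines. Other members were described by their changes. Alternatives were log2(CPM + 1), no filter within the line, median-ratio scaling, separate fits, a replicate block, voom weights on recovered reads, the mitochondrial share as a covariate, and leaving out libraries. Loci and overlaps come from GENCODE 29. Intervals marked SE come from the fit of all 18 libraries and pool the spread of the 6 groups. A gene therefore has the same SE for its change in every line, whatever the spread of that line's own cultures. Intervals marked SD are over the 3 cultures of a group. Reads are not independent molecules. Python 3.11.15 with matplotlib 3.10.9 made the plots.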

Additional observations from a re-analysis of the deposited data

Results flagged for a closer look

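In 9 of 34 members the response to RMC-4550 differed between Molm-14 and MV4-11 by the test of the difference itself. Of all genes tested, 9.14% were called lower and 10.4% higher in that comparison. In 1 of 34 it differed between SKNO-1 and the mean of those lines, where 2.46% of genes tested were called lower and 1.36% higher. Each value is a difference of log2 changes by limma, and a negative value is a larger fall in the line named first. For Molm-14 minus MV4-11 it was -1.33 for EXO1, -0.95 for BLM, -0.896 for FANCE, -0.896 for BRIP1, -0.845 for RBBP8, -0.82 for ATR, -0.775 for XRCC2, -0.73 for FANCA and -0.61 for RAD54L. For SKNO-1 minus the mean of Molm-14 and MV4-11 it was -0.75 for RAD54L. That 1 call is near the share of all genes, and it was lost without SKNO-1 DMSO replicate 1 or 2 or RMC-4550 replicate 3. The fall was larger in Molm-14 for all 9, which include BLM and EXO1 of end processing, ATR of the checkpoint and FANCA and FANCE of the Fanconi core. Without the 4 libraries with a high mitochondrial share the differences were -0.76 for EXO1, -0.51 for BLM, -0.57 for BRIP1, -0.72 for FANCA and -0.53 for ATR, all still called, and -0.35 for FANCE, -0.37 for RBBP8, -0.57 for XRCC2 and -0.33 for RAD54L, which were not.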

How the results depend on the processing

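Of 494 summary values recomputed (counts and medians of members), 448 stayed within the limits set and 46 moved. The share of all genes called was computed only for the main fit and without the 4 libraries. The other counts below therefore stand without it and are not a result about the members alone. Of 2652 recomputed member responses, 2585 kept their call or lack of one, 42 lost it, 24 gained it and 1 changed sign with a call. Many values in both totals could move little. Leaving out a library of another line, the replicate block and the separate fits left the estimated change of a line as it was. The numbers kept therefore overstate how well the results hold. Separate fits gave 11 lower members in MV4-11, 1 higher in SKNO-1, 4 lower for Molm-14 minus MV4-11, and 2 higher for DMSO MV4-11 minus Molm-14. Log2(CPM + 1) gave a median of -0.85 in SKNO-1. The mitochondrial covariate gave 1 higher in SKNO-1, 9 lower and 2 higher for SKNO-1 minus the mean of the other lines, 1 higher for Molm-14 minus MV4-11, and 12 lower and 1 higher for DMSO SKNO-1 minus MV4-11. It turned FANCE in MV4-11 to -0.21 and, for DMSO SKNO-1 minus MV4-11, NBN to -0.24 and FANCC to -0.50. Leaving out the 4 libraries over 10% mitochondrial reads gave 1 higher in SKNO-1, 8 lower for SKNO-1 minus the mean of the others, 5 lower and 1 higher for Molm-14 minus MV4-11, 10 lower and 2 higher for DMSO SKNO-1 minus MV4-11, and 8 lower for DMSO MV4-11 minus Molm-14. For DMSO SKNO-1 minus MV4-11 it turned FANCC to -0.42, MSH6 to -0.0246 and EXO1 to -0.37, and for DMSO MV4-11 minus Molm-14 XRCC3 to -0.34. The cause of these changes was not tested. Leaving out each library in turn gave 26 to 28 lower members in Molm-14, against 16 to 19 in MV4-11 (0 to 1 higher) and 25 to 26 in SKNO-1, 0 to 3 lower for SKNO-1 minus the mean of the others, and 4 to 19 lower and 0 to 1 higher for Molm-14 minus MV4-11. For levels with DMSO it gave 3 to 5 lower and 0 to 9 higher for SKNO-1 minus MV4-11, and 7 to 18 lower and 2 to 5 higher for MV4-11 minus Molm-14. With the replicate block 27 members were lower in Molm-14, against 19 in MV4-11 and 26 in SKNO-1, and 3 were higher for DMSO SKNO-1 minus MV4-11. The replicate numbers were not shown to pair the samples: the correlation of deviations between the arms for samples of the same number was -0.04 to -0.01 in Molm-14, against -0.40 to 0.60 in MV4-11 and 0.01 to 0.14 in SKNO-1, and 3 of 9 DMSO samples correlated best with their own number. Low reads limit FANCB, FANCG and RAD51B, and the MV4-11 controls limit every comparison with that line.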
